A study of Spirodela polyrhiza with 13 samples.

Results

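Stage 3 fronds of the greater duckweed, Spirodela polyrhiza, were compared with stage 2 fronds, the earliest stage sequenced. The comparison used 6 of the 13 RNA sequencing libraries of the series, 3 of stage 3 and 3 of stage 2, all from frond tissue of wild-type plants. The other libraries were of stages 4 (3 libraries), 5 (2 libraries) and 6 (2 libraries), and served only to follow the same genes later. All groups shared the growth conditions: SH medium, exchanged each 7 days, and a day of 16 h light at 23 °C with 8 h darkness at 20 °C. The labels define the stages neither by size nor by age. They also do not state that replicate libraries were separate plants or cultures, so each p-value measures spread among libraries that may be technical.

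A duckweed plant is a floating, leaf-like frond that buds new fronds from a pocket of the mother frond. A young frond first divides and then enlarges, and its tissue becomes aerenchyma, a spongy tissue of large gas spaces that keeps the plant afloat and lets gases diffuse. In other plants such spaces form where cells part or die, and ethylene is the hormone best known for promoting them. The series was made to relate plant hormones to the layout of this tissue.

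Levels are FPKM (fragments on a gene scaled by its length and by all fragments on genes in the library), which the authors deposited for 19623 gene IDs. Of these, 15009 genes had at least 1 FPKM in at least 2 of the 6 libraries and were tested. The IDs carry no gene names in the files used here, so no gene could be assigned to a hormone, a pathway or a cell type, and the tissue label was not checked against marker genes. Genes are described by level, by size and direction of change, by coding length and by their course at later stages. In whole fronds, fewer cells of a type and less RNA per cell cannot be told apart.

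The libraries were of similar depth and separated by stage. Whole reads could be recovered from the FPKM values, and the 3 libraries of stage 3 held 9126434 to 9296396 reads on genes, against 8928894 to 10910370 at stage 2. Genes at 1 FPKM or more numbered 14784, 14769 and 14897 at stage 3, and 14599, 14692 and 14641 at stage 2, so the stages did not overlap. The means were 14817 ± 70.0 and 14644 ± 46.6 (SD, n = 3 each), with p = 0.1 by an exact permutation test (two-sided). That is the lowest p this number of libraries can give, and it was 0.467 after Benjamini-Hochberg adjustment over 7 library measures tested by exact permutation. The share of reads on the 100 most abundant genes overlapped between stages, at 11.5% ± 0.361 at stage 3 and 11.6% ± 0.127 at stage 2 (n = 3 each, exact permutation p = 0.800).

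Stage 3 replicate 1 lay nearest to stage 2. Its correlation across genes on the log2(FPKM + 1) scale was 0.982 with stage 2 replicate 1, against 0.975 with stage 3 replicate 3 of its own stage. Pairs within stage 3 ranged between 0.975 and 0.986, pairs within stage 2 between 0.986 and 0.988, and the 9 pairs between stages averaged 0.969. Principal component 1 (54.5% of variance) placed every stage 3 library on the side opposite to stage 2, with scores of 11.0, 27.4 and 34.3 at stage 3 and of -23.9, -21.2 and -27.6 at stage 2. Component 2 (21.3%) had replicate 1 highest and replicate 3 lowest at both stages.

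**Figure D1:**
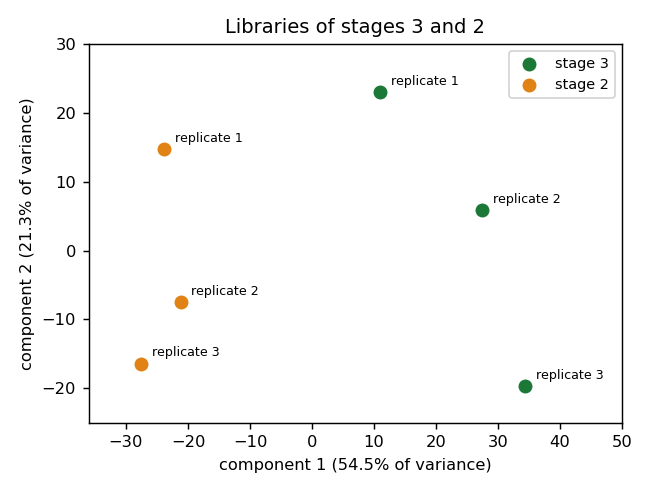
The 6 libraries on the first 2 principal components of log2(FPKM + 1) over 15009 genes, with the share of variance on each axis. Stage 3 libraries lie between 11.0 and 34.3 on component 1 and stage 2 libraries between -27.6 and -21.2, while component 2 runs within both stages.

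Expression differed between the stages at many genes, with rises and falls in nearly equal number. At adjusted p under 0.05 (limma on log2(FPKM + 1), Benjamini-Hochberg adjustment), 2612 genes were called, 17.4% of those tested. Of these, 1358 rose at stage 3 (9.05%) and 1254 fell (8.35%). An unadjusted p under 0.05 was reached by 5327 genes (35.5%). The libraries of both stages did not overlap for 1351 of the genes that rose, when 20.5% of all tested genes lay wholly higher at stage 3. They did not overlap for 1248 of the genes that fell, when 19.4% of all tested genes lay wholly lower, 39.9% in all. The same values chose the called genes, so their lack of overlap describes the calls and does not test them. The called total moved with single libraries. It was 1429 without stage 2 replicate 2, 848 without stage 2 replicate 3, 670 without stage 3 replicate 2 and 1589 without stage 3 replicate 3. Genes called whichever of the 6 libraries was left out numbered 327 that rose (24.1% of the rises), with a median log2 change of 1.00, and 265 that fell (21.1% of the falls), with a median of -0.62.

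Rises were larger than falls. The genes that rose had a median log2 change of 0.66, which is 1.58-fold, and the quartiles of the change were 0.49 and 0.91. The genes that fell had a median log2 change of -0.48, which is 1.40-fold, with quartiles of -0.62 and -0.39. These medians pool genes of different levels, and the gap was smaller at middle levels. By mean FPKM over the 6 libraries, the medians were 0.60 and -0.56 at 10 to 50 FPKM, and 0.50 and -0.46 at 50 to 200 FPKM. They were 0.92 and -0.73 at 2 to 10 FPKM, and 0.63 and -0.37 at 200 FPKM or more. The median over all tested genes was 0.02. Rises of 1.5-fold or more numbered 794, and falls of that size 388. Rises of 2-fold or more numbered 267 (1.78% of the genes tested), and falls of that size 28 (0.187%). At least 3-fold, 70 rose and 3 fell. The largest rise was 3.26 and the largest fall -1.97 on the log2 scale. Rises of at least 2-fold numbered 174 without stage 3 replicate 2. Falls of that size numbered 90 without stage 3 replicate 1 and 17 without stage 2 replicate 3. They numbered 48 and 47 with pseudocounts of 0.1 and 0.01 FPKM, 44 after quantile normalization (against 218 rises), 48 with library weights and 51 with voom on the recovered reads.

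**Figure D2:**
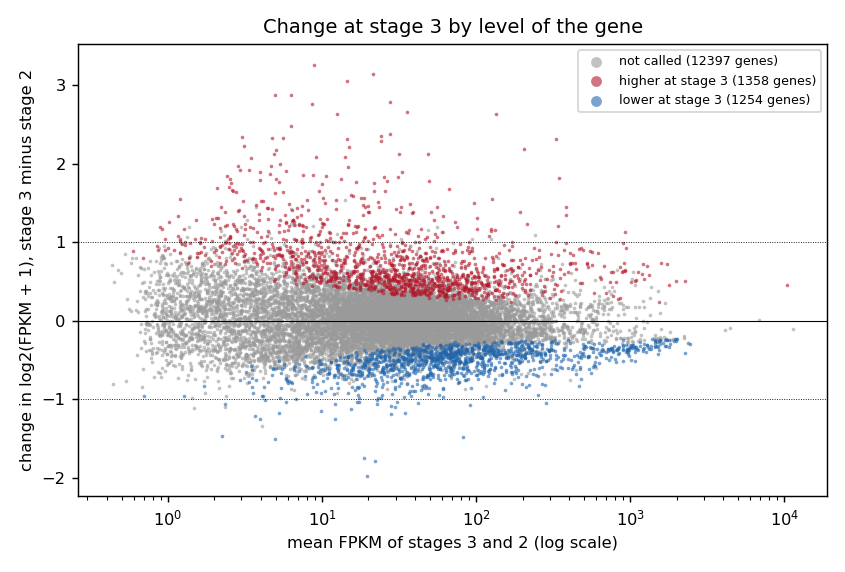
Change in log2(FPKM + 1), stage 3 minus stage 2, against mean FPKM on a log axis, 1 point per tested gene, with dotted lines at 2-fold. The 1358 genes that rose reach 3.26 and are spread over all levels, while most of the 1254 that fell stay above -1 and form a narrow band toward the most abundant genes.

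The stage 3 libraries did not share these changes equally. Over the genes that rose, the median difference from the stage 2 mean was 0.56, 0.69 and 0.70 in replicates 1, 2 and 3 of stage 3 on the log2 scale. Over the genes that fell it was -0.41, -0.50 and -0.52. Replicate 1 was thus the closest to stage 2 in both directions, and over all tested genes the medians were 0.02, -0.00 and 0.03. Replicate 1 held the highest stage 3 value for 16.0% of the genes that rose, against 37.8% of all tested genes. These values chose the genes, so they describe the calls and do not test them. The typical spread within a stage was similar, with a median SD over genes of 0.145 at stage 3 and 0.141 at stage 2. The more variable genes spread further at stage 3. The SD that marks the upper decile of genes was 0.383 there, against 0.337 at stage 2.

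Direction went with the level of the gene. Among the 972 genes with a mean of 200 FPKM or more over the 6 libraries, 110 rose (11.3%) and 269 fell (27.7%). Among the 3699 genes of 50 to 200 FPKM, 342 rose and 492 fell. The balance was the other way for rarer genes, with 565 rises and 421 falls among 6791 genes of 10 to 50 FPKM, and 300 rises and 69 falls among 2717 genes of 2 to 10 FPKM. Below 2 FPKM, 41 of 830 genes rose and 3 fell. The precision of a change also differed with level, since its median SE was 0.26 below 2 FPKM and 0.09 at 200 FPKM or more, and its part in the number of calls was not tested.

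Falls outnumbered rises at 200 FPKM or more, and rises outnumbered falls below 10 FPKM, under the 17 alternative settings that kept calls of any size. Among changes of 2-fold or more the balance at 200 FPKM or more was the other way, with 9 rises and 1 fall, and at 50 to 200 FPKM it was 22 rises to 2 falls. Below 10 FPKM the balance was 341 rises to 72 falls as deposited and 228 to 179 after quantile normalization. It was 556 to 304 with library weights and 388 to 136 with voom on the recovered reads. With stage 2 replicates 1, 2 and 3 left out in turn it was 230 to 39, 168 to 14 and 135 to 6. With stage 3 replicates 1, 2 and 3 left out in turn it was 363 to 155, 92 to 8 and 207 to 31. Falls at 200 FPKM or more numbered 138 without stage 2 replicate 2, 89 without stage 2 replicate 3, 86 without stage 3 replicate 2 and 174 without stage 3 replicate 3. Rises of that class numbered 50 without stage 2 replicate 3 and 38 without stage 3 replicate 2. After quantile normalization that class held 135 rises and 188 falls, against 110 and 269 as deposited.

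**Figure D3:**
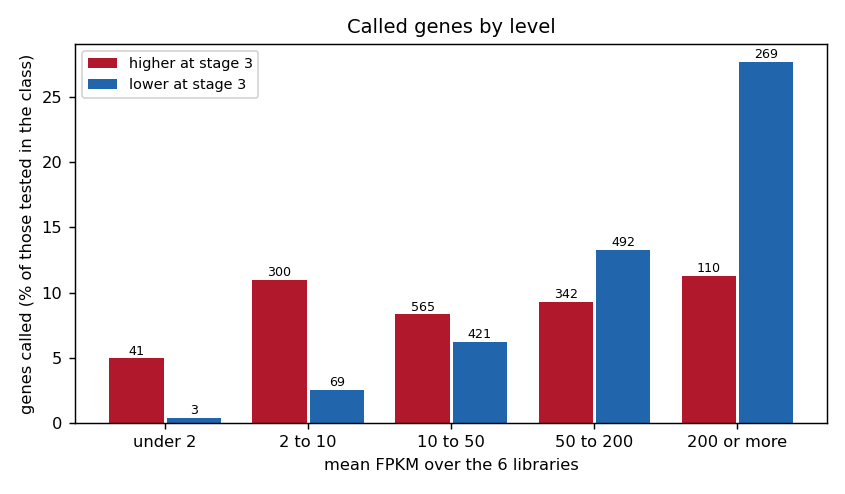
Share of tested genes called in 5 classes of mean FPKM, with the number of genes above each bar. Bars for genes that rose at stage 3 stay between 4.94% and 11.3%, while bars for genes that fell grow with level to 27.7% at 200 FPKM or more.

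The falls among abundant genes were small and alike in size. Their median log2 change was -0.37, with quartiles of -0.46 and -0.32. The 110 abundant genes that rose had a median of 0.63 and quartiles of 0.49 and 0.78, and the 593 abundant genes not called had a median of -0.03. Coding lengths, read from the FPKM steps, were shorter among the abundant genes that fell, with a median of 504 bases, against 612 for those not called and 747 for those that rose. Of the abundant genes that fell, 59.5% had under 600 coding bases, against 36.4% of those that rose and 50.6% of all abundant genes. Length differences were not tested. The large rises lay elsewhere: 144 of the 267 genes that rose at least 2-fold (53.9%) had a mean under 10 FPKM, while 23.6% of all tested genes did.

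The called genes exchanged a modest part of the sequenced RNA. Genes that rose took 12.99%, 14.71% and 14.40% of the reads in the 3 stage 3 libraries, against 9.46%, 9.50% and 8.48% in the stage 2 libraries. Genes that fell took 15.17%, 14.34% and 13.96% at stage 3, against 18.98%, 19.41% and 20.09% at stage 2. The abundant genes that fell accounted for 9.27% of all stage 3 reads and 12.1% of all stage 2 reads. The stages did not overlap for either set, but these values chose the genes and are a description. Values are shares of a library, so a change in share and a change in the amount of a transcript cannot be told apart.

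Genes are named here only if their libraries of stages 3 and 2 did not overlap, so a lack of overlap is no result for them. Of the genes that rose, Spipo22G0026000 (378 coding bases) changed most. It was at 12.8, 25.8 and 12.5 FPKM in the stage 3 libraries, from 44, 90 and 44 reads. In the stage 2 libraries it was at 1.48, 0.825 and 0.242 FPKM, from 5, 3 and 1 reads. Its lowest stage 3 library thus lay far above its highest stage 2 library, and the log2 change was 3.26 (SE 0.33, adjusted p = 0.00436, limma). In the libraries of stages 4, 5 and 6 it averaged 54.7, 36.0 and 69.2 FPKM. Its stage 4 against stage 3 change, which shares the stage 3 libraries, was also called (log2 1.70, SE 0.25, adjusted p = 0.0250, limma). Its stage 6 against stage 4 change was not called (log2 0.33, SE 0.17, adjusted p = 0.125, limma).

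Among the 327 genes that rose whichever library was left out, Spipo26G0001200 (747 coding bases) gained most FPKM. It was at 2011, 2000.0 and 1900.1 FPKM in the stage 3 libraries, against 1357, 1193 and 1017 FPKM in the stage 2 libraries. The groups did not overlap, as the choice of gene required, and stage 2 was the more spread of the stages (SD 169.8 FPKM, against 61.3 at stage 3). The log2 change was 0.74 (SE 0.11, adjusted p = 0.00621, limma), and the gene ranked 14th among tested genes at stage 3 and 91st at stage 2. Its stage 4 against stage 3 change was also called (log2 0.65, SE 0.10, adjusted p = 0.0262, limma). It was higher again at stage 6 than at stage 4, with means of 4463 and 3118 FPKM (log2 change 0.53, SE 0.14, adjusted p = 0.00979, limma).

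Of the genes that fell, Spipo20G0023600 (630 coding bases) changed most. It was at 8.52, 6.35 and 5.81 FPKM in the stage 3 libraries, against 15.8, 34.7 and 47.0 FPKM in the stage 2 libraries. The stage 2 libraries were widely spread, but none came as low as stage 3, as the choice of gene required. The log2 change was -1.97 (SE 0.34, adjusted p = 0.00993, limma). The gene then kept to a low level, with 6.67, 5.58 and 4.68 FPKM on average at stages 4, 5 and 6. Its stage 4 against stage 3 change was not called (log2 -0.07, SE 0.24, adjusted p = 0.900, limma). Nor was its stage 6 against stage 4 change (log2 -0.43, SE 0.29, adjusted p = 0.223, limma).

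Among the 265 genes that fell whichever library was left out, Spipo15G0004700 (447 coding bases) lost most FPKM. It was at 953, 874 and 818 FPKM in the stage 3 libraries, against 1228, 1287 and 1247 FPKM in the stage 2 libraries. Both groups were tight, and they were apart as the choice of gene required. The log2 change was -0.51 (SE 0.08, adjusted p = 0.00744, limma). Its stage 4 against stage 3 change was not called (log2 -0.09, SE 0.09, adjusted p = 0.605, limma). It was lower again at stage 6 than at stage 4, with means of 608 and 827 FPKM (log2 change -0.45, SE 0.17, adjusted p = 0.0462, limma), though its stage 5 libraries stood at 693 and 995 FPKM.

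**Figure D4:**
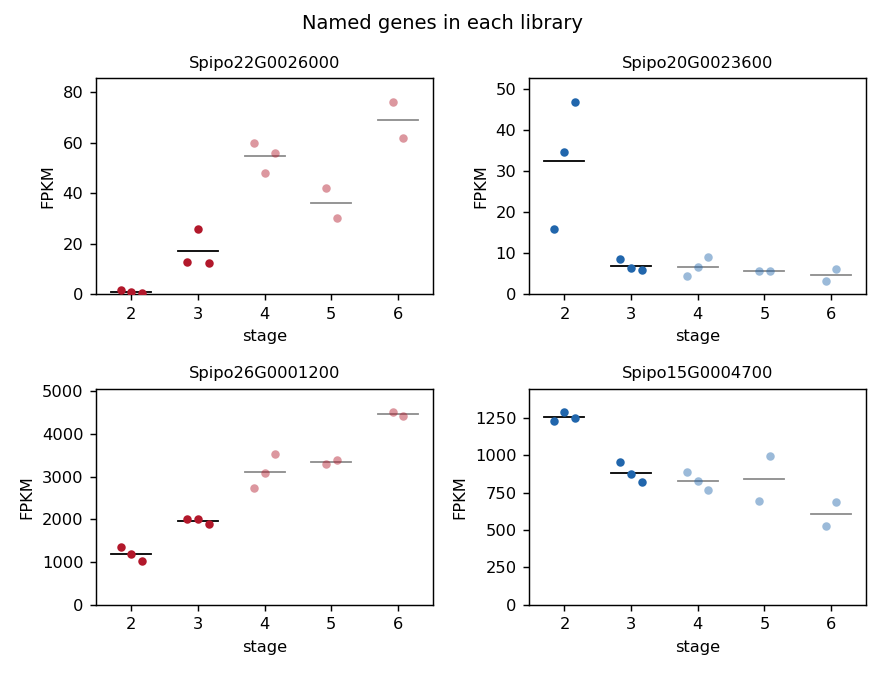
FPKM of the 4 named genes in each library by stage (points) with the stage mean (line), genes that rose at stage 3 on the left and genes that fell on the right; libraries of stages 4 to 6 are drawn fainter. The genes were chosen to have no overlap between stages 3 and 2, so the gap between these points in all 4 panels follows from the choice.

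The next step of development was compared by the same test. At stage 4 against stage 3, 220 of 15149 genes were called (1.45%), of which 161 were higher (1.06%) and 59 lower (0.389%) at stage 4, while 2916 (19.2%) had an unadjusted p under 0.05. This comparison shares the stage 3 libraries with that of stages 3 and 2, and they enter both changes with opposite sign. The sets below were also chosen by their change at stage 3. A smaller change at the next step was thus favoured beforehand. The medians and counts are given side by side as a description, and no overlap or difference between the steps is read from them. Over the 1358 genes that rose at stage 3, the median log2 change was 0.66 at stage 3 against stage 2 and 0.19 at stage 4 against stage 3, where 112 were called higher and 6 lower. Over the genes that fell at stage 3, the medians of the same 2 comparisons were -0.48 and -0.15, and at stage 4 against stage 3 there was 1 called higher and 3 lower. The 267 genes that rose at least 2-fold had medians of 1.28 and 0.65.

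Whether a gene changed by a different amount at each step was tested directly. The difference between the step to stage 3 and the step to stage 4 was called for 0 of 15262 genes (0%) by limma in the 9 libraries of stages 2 to 4. The smallest adjusted p was 0.0997 (limma), and 1751 genes (11.5%) had an unadjusted p under 0.05. The median SE of this difference was 0.24 on the log2 scale, so modest differences between the steps were not detectable with these libraries. Without stage 3 replicate 1, the library nearest to stage 2, the difference was called for 91 genes, of which 70 had the greater log2 change at the step to stage 3.

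The later course of the genes was read in the 7 libraries of stages 4 to 6, which the comparison of stages 3 and 2 did not use. Most genes that fell at stage 3 fell further, and many that rose at stage 3 rose further. At stage 6 against stage 4, 658 of the 1358 genes that rose at stage 3 were called higher (48.5%) and 153 lower (11.3%), with limma at adjusted p under 0.05. Of all 15435 genes tested there, 20.3% were higher and 38.7% lower. Of the 1252 tested genes that fell at stage 3, 964 were called lower at stage 6 (77.0%) and 25 higher (2.00%). The median log2 change of stage 6 against stage 4 was 0.42 for the genes that rose at stage 3, -0.75 for those that fell and -0.26 over all genes tested.

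The median over all genes depended on scaling: it was -0.26 as deposited and -0.02 with median ratio scaling of the libraries. With that scaling 58.5% of the genes that rose at stage 3 were called higher at stage 6 and 5.23% lower, against 27.9% and 24.4% of all genes. Of the genes that fell at stage 3, 56.1% were then called lower and 3.67% higher. The direction of both sets relative to all genes was therefore the same under both scalings. Without stage 6 replicate 1, 2357 genes were called higher and 4160 lower in all, and the shares were 37.3% of the genes that rose and 51.8% of those that fell.

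The same direction was seen in each of the 4 classes from 2 FPKM upward. Among genes of 200 FPKM or more, 85 of the 110 that rose at stage 3 were called higher at stage 6 than at stage 4 (77.3%), against 18.3% of all 972 genes of that class. Of the 269 that fell at stage 3, 213 were called lower (79.2%), against 48.8% of the class. Among genes of 2 to 10 FPKM, 53.0% of the 300 that rose were called higher, against 26.6% of the class, and 62.3% of the 69 that fell were called lower, against 27.6%. Between 10 and 50 FPKM the shares were 42.1% against 16.4% for rises and 73.4% against 41.5% for falls, and between 50 and 200 FPKM 44.7% against 14.8% and 81.1% against 50.7%. These counts describe the sets and carry no test of their own.

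Levels in single libraries showed the same course. The median over the genes that rose was 33.1, 36.6 and 37.2 FPKM in the stage 3 libraries, against 23.2, 22.7 and 21.2 FPKM in the stage 2 libraries. In the later libraries it was 39.9, 41.4 and 47.8 FPKM at stage 4, 43.0 and 42.0 FPKM at stage 5, and 53.8 and 51.3 FPKM at stage 6. All 7 later libraries thus lay above each stage 3 library. The median over the genes that fell was 58.7, 55.5 and 54.3 FPKM at stage 3, against 76.0, 78.8 and 81.4 FPKM at stage 2. It was 54.2, 49.6 and 44.4 FPKM at stage 4, 38.6 and 40.9 FPKM at stage 5, and 25.9 and 32.9 FPKM at stage 6. All 7 later libraries lay below each stage 3 library, though stage 4 replicate 1 did so only just. These levels are as deposited, and the median over all tested genes declined as well. That median was 28.1, 27.8 and 28.0 FPKM at stage 3, and 27.3, 26.7 and 25.9 FPKM at stage 4. At stage 5 it was 24.3 and 23.6 FPKM, and at stage 6 23.1 and 23.5 FPKM.

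The later course of the genes with the largest changes was described in the same way. The 267 genes that rose at least 2-fold had a median of 10.9, 13.2 and 14.9 FPKM in the stage 3 libraries, against 4.41, 4.18 and 4.21 FPKM in the stage 2 libraries. They reached 40.3 and 37.3 FPKM in the stage 6 libraries, and 137 of them (51.3%) were called higher at stage 6 than at stage 4, against 20.3% of all genes. With median ratio scaling it was 61.0%, against 27.9% of all genes. The 28 genes that fell at least 2-fold had a median of 11.0, 8.54 and 8.29 FPKM at stage 3, against 21.6, 24.6 and 29.4 FPKM at stage 2. In the stage 4 libraries they were at 12.6, 7.49 and 8.53 FPKM, which overlapped the stage 3 libraries, and at stage 6 at 4.63 and 7.79 FPKM. Of these genes 13 were called lower at stage 6 than at stage 4 (46.4%, against 38.7% of all genes) and 1 was called higher. With median ratio scaling 7 of the 28 were called lower, a share near the 24.4% of all genes.

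**Figure D5:**
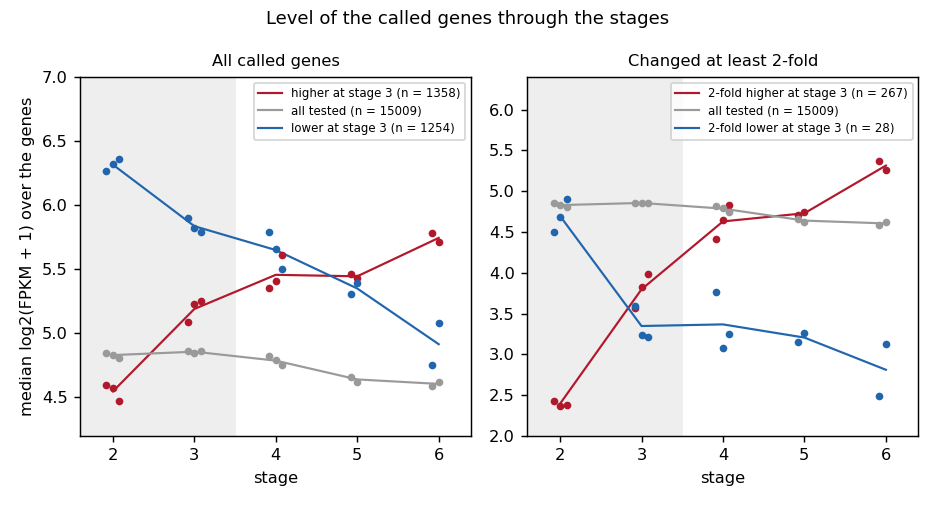
Median log2(FPKM + 1) in each library (points) and mean of these by stage (lines) for genes called at stage 3 against stage 2 (left) and for those changed at least 2-fold (right), with all 15009 tested genes in grey. The shaded stages chose the genes. In the unshaded libraries the genes that rose lie above stage 3 in both panels, and the genes that fell lie below it in the left panel, stage 4 replicate 1 only just. All tested genes also lie lower there than at stage 3, as deposited. The genes that fell at least 2-fold (right) overlap stage 3 at stages 4 and 5 and lie lower only at stage 6.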

How the data were processed

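Reads came from a stranded messenger RNA kit, per the labels' protocols. The submitters' processing notes name HISAT2 2.2.1 and HTSeq 0.11.3, with CASAVA 1.8.2, Trimmomatic 0.39 and Picard 2.25.5. The authors deposited FPKM values, 1 column per library. Genome build, annotation and strand setting are not given in the sources, so overlapping antisense genes and near-identical copies stay uncertain. Recovered reads came out whole within 0.001 reads for 100.0% of 17445 genes with any value. The recovery searched for whole reads, so that share follows in part from the search. All lengths first implied for 11797 genes with over 1000 reads were multiples of 3, hence "coding length".

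The test was limma 3.58.1 (R 4.3.3) with a mean-variance trend on log2(FPKM + 1), which understates changes near 1 FPKM. The 6 libraries of stages 3 and 2 were fitted alone, with 4 residual degrees of freedom. The difference of steps used stages 2 to 4 and the later course stages 4 to 6. Levels are means ± SD. The read recovery and the fits were also run on simulated reads with independent libraries. Those reads held no deviation of whole libraries, so that run does not bear on how the calls move with single libraries.

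Named genes, 2 per direction, had no overlap between stages, 10 FPKM or more on average where higher, and calls with each library left out. Of these, the gene with the largest log2 change and the gene with the largest FPKM difference were taken. Members and rules were chosen with earlier results of these data known. Planned gene lists by product name could not be applied to bare IDs.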

Additional observations from a re-analysis of the deposited data

How the results depend on the processing

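All alternatives were planned. Leaving out 1 library gave 670 to 2995 called genes at stage 3 against stage 2, 0 to 91 for the difference of steps and 6517 to 9129 at stage 6 against stage 4. Library weights called 4600 genes at stage 3 against stage 2. That fit gave a weight of 3.16 to stage 3 replicate 2, and of 0.625 and 0.614 to stage 3 replicates 1 and 3. The stage 2 libraries had weights of 0.882 to 1.05. The cause of the higher number was not tested. A 2-fold minimum left 295 genes, fewer by construction. Libraries with the same replicate number had correlated deviations for numbers 1 (0.385) and 3 (0.286) but less for number 2 (0.086). Of the 6 libraries, 5 correlated best with their own number, so same-numbered libraries were partly alike. The labels do not state that the numbers pair libraries, and for that reason the main fit did not assume pairing. A fit with a replicate block was run all the same, and 3920 genes were called at stage 3 against stage 2 (2053 higher, 1867 lower; below 10 FPKM 466 and 151) and 6 for the difference of steps. The other alternatives stayed within 1.5 times of each of these 3 totals, though not of the 2-fold falls at stage 3. As deposited, 34.4% of calls at stage 6 against stage 4 were rises, against 53.3% with median ratio scaling. The named genes kept their sign and call in all 44 alternatives that left out no library. The stage 3 minus stage 2 difference in genes at 1 FPKM or more was 132 to 197 with a library left out, that in median FPKM 0.31 to 0.701, and that in the read share of the 100 most abundant genes -0.187 to 0.166 percentage points (-0.346 for 1000 genes). Below 2 FPKM the median gene had 59.0 reads over 6 libraries.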

Other observations

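Few genes lacked reads at 1 stage and were present throughout the other. Genes at 1 FPKM or more in all stage 3 libraries and without a read at stage 2 numbered 0, as did genes with the opposite pattern. Where stage 2 held at most 3 reads in sum, 3 genes were at 1 FPKM or more throughout stage 3, from 7 to 15 reads in sum. Where stage 3 held at most 3 reads in sum, 1 gene was at 1 FPKM or more throughout stage 2, from 8 reads in sum. None of these were at 5 FPKM in each library of the higher stage.

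Called genes sometimes had consecutive IDs. Of 1121 genes that rose at stage 3 and whose next ID was also tested, 142 (12.7%) had a next ID that rose too, against 9.05% of all tested genes. For genes that fell, it was 107 of 1096 (9.76%), against 8.35% of all tested genes. No test was run, and no position is given to an ID.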
